A study of Mus musculus with 4 samples.

Results

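The genes described here encode the vasoactive systems with which endothelial cells (ECs) set vessel tone and barrier function: nitric oxide synthase 3 (Nos3), the endothelin peptide, its converting enzyme and its receptors (Edn1, Ece1, Ednra and Ednrb), angiotensin-converting enzyme (Ace), and adrenomedullin with its receptor and the accessory proteins of that receptor (Adm, Calcrl, Ramp2 and Ramp3). They were taken by gene symbol from the deposited table, in which all 10 were found among 26822 genes. The table holds RNA-seq values of ECs from C57BL/6J mice at postnatal day 6 (P6), whose retinas were digested with collagenase before viable CD31+/CD45- cells were sorted by flow cytometry. Its 4 libraries form 1 group, labelled control, with no treated or mutant library and no other tissue, and they are numbered 1 to 4 as in the labels. The study describes its samples as independent, but nothing in the labels assigns the libraries to separate animals, so p-values measure only the spread between these samples, which may be technical. The isolation text in the labels speaks of HUVECs, a human EC type, and its bearing on these mouse cells was not tested.

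Nitric oxide made by NOS3 diffuses from ECs to the smooth muscle and pericytes of the vessel wall, where it activates soluble guanylyl cyclase and relaxes the cells. Endothelin-1, cut from its precursor by the converting enzyme ECE1, acts in the opposite direction through ETA receptors (Ednra) on mural cells, whereas ETB receptors (Ednrb) on ECs clear endothelin and can stimulate nitric oxide release. Adrenomedullin, a peptide induced by low oxygen and known from the tip cells of growing vessels, signals through the calcitonin receptor-like receptor (CALCRL) only when that receptor is paired with a receptor activity-modifying protein (RAMP), and the pairs with RAMP2 and RAMP3 form the adrenomedullin receptors.

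All 10 genes were detected, meaning a mean normalised count of at least 10, as were 56.0% of the 26822 genes. Their counts summed to 0.133% to 0.143% of the library totals. Because longer transcripts yield more reads, levels of different genes were compared after division by the length of their exons, as normalised counts per kb. On that scale the levels spanned 39.7-fold, in the order Ramp2, Ece1, Nos3, Adm, Calcrl, Edn1, Ednrb, Ace, Ednra and Ramp3. The median of the 10 genes was 482 per kb, against 161 per kb over the 15000 detected genes with a known length. The 4 highest, Ramp2, Ece1, Nos3 and Adm, lay above the 90th percentile of detected genes, which was 854 per kb, and 6 lay above the median. In the order of counts as deposited, without division by length, Ece1 came first and was followed by Nos3, Calcrl and Ramp2.

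**Figure D1:**
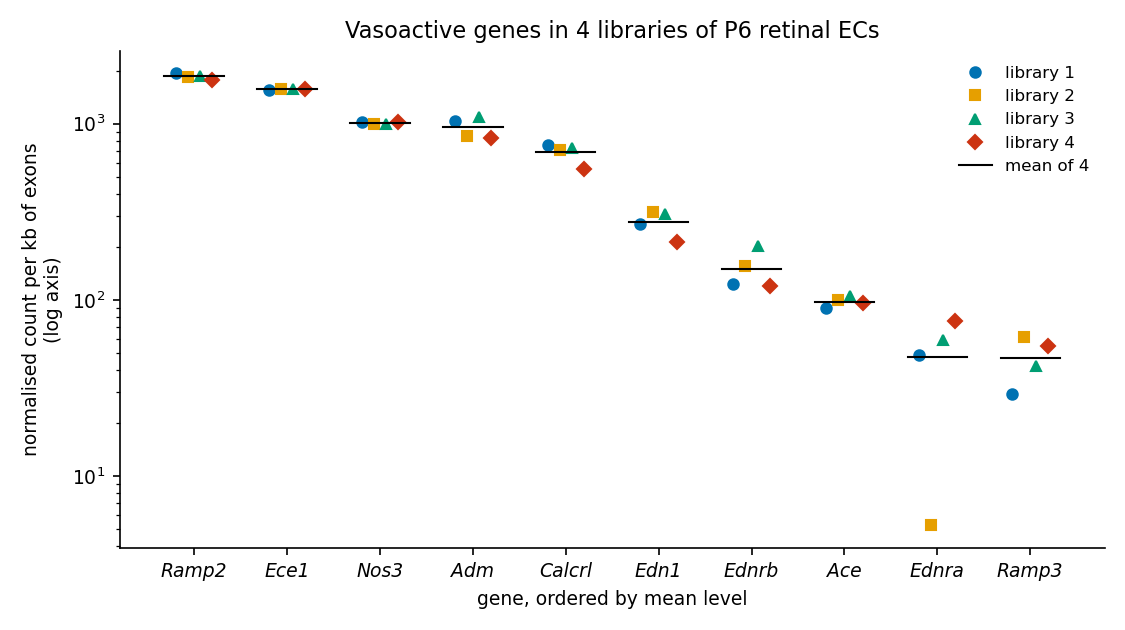
Normalised count per kb of exons (log axis) of the 10 genes in each of the 4 libraries of P6 retinal ECs, with a bar at the mean; genes are ordered by mean. Ramp2, Ece1 and Nos3 gave nearly the same value in every library, whereas Ednra in library 2 lay far below the other 3 libraries.

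The position of each gene among all detected genes is shown in the plot of level distributions. The upper end of that distribution was narrow: its 99th percentile stood at 1546 per kb and its highest gene at 2854 per kb, only 1.85-fold above. Ramp2 ranked 23 and Ece1 ranked 133 of the 15000, so both stood where little room remained between genes. Differences among the highest genes are read here only as measured on this scale. Whether the unknown scaling compresses high levels was not tested, and folds that involve these genes may be understated.

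**Figure D2:**
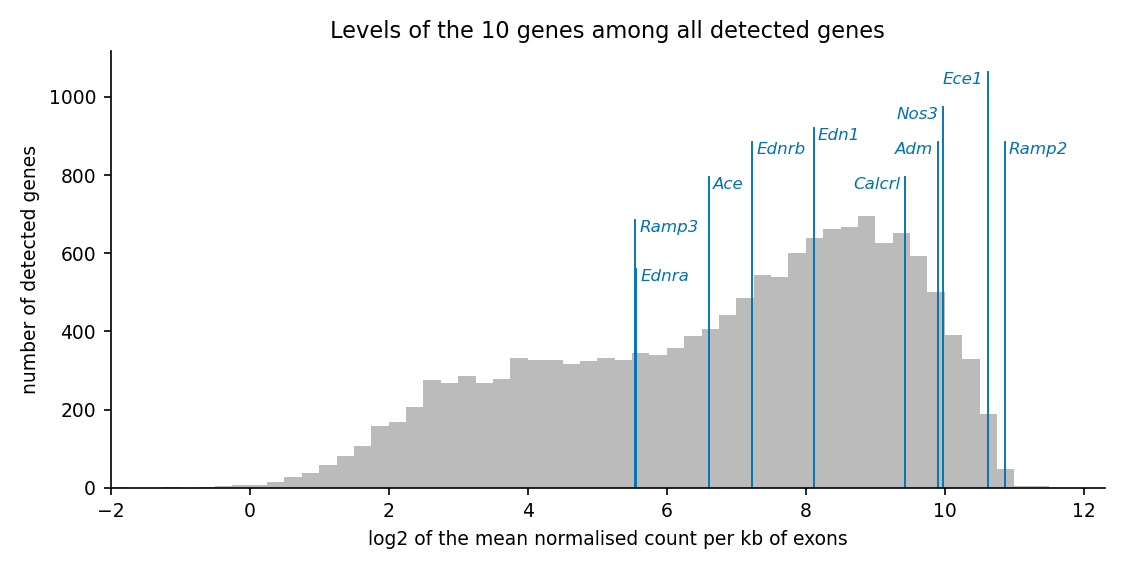
Number of detected genes (bars, 0.25 log2 units wide) by the log2 of the mean normalised count per kb of exons, with a line, of arbitrary height, at each of the 10 genes. Ramp2 and Ece1 stand at the upper edge, Nos3, Adm and Calcrl on the upper slope, and Ednra and Ramp3 below the median of 161 per kb.

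Nos3, which makes nitric oxide from arginine, had normalised counts of 4223, 4105, 4096 and 4207 in libraries 1 to 4. The highest library was 1.03 times the lowest. Its mean was 4158 ± 66.5 (SD, n = 4), or 1006 ± 16.1 per kb, above 93.2% of detected genes. Nos3 (ENSMUSG00000028978) lies on the plus strand of chr5:24364810-24384474 in GRCm38. Of its 4132 exonic bases, 25.2% overlap exons of Gm15587 and 7.12% overlap those of Atg9b, both on the opposite strand. The labels name a stranded kit in the same text that speaks of HUVECs, and the strand setting of the count is not given in the sources used here, so reads in these stretches cannot be assigned. Gm15587 itself had counts between 156 and 206 and Atg9b between 47 and 83, both small against Nos3. These counts do not show how reads in the shared stretches were counted, so the effect on the Nos3 level is unknown.

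Nos2, the inducible isoform best known from activated macrophages, was also present. Its normalised counts were 2216, 2015, 2152 and 2054. Per kb, Nos3 exceeded Nos2 by 1.04 ± 0.06 on the log2(count + 1) scale (2.05-fold), was higher in 4 of 4 libraries and did not overlap with it. The exact two-sided permutation test gave p = 0.0286, the smallest p that 4 against 4 values allow, and an adjusted p of 0.0286 over 10 pairs of related genes. That test treats the values of both genes as independent, although they come from the same 4 libraries. The exact sign-flip test within libraries cannot go below p = 0.125 with 4 libraries, so by it no pair in this report, Nos3 and Nos2 included, could pass 0.05. In the same libraries the summed counts of 10 leukocyte markers lay between 35 and 170. The CD45 gene Ptprc stood at 11, 1, 1 and 0, but the sort took CD45- cells, so low Ptprc was selected for. Cd68, the highest of these markers per kb, stood at 33, 6, 40 and 18. The part of leukocyte RNA in the Nos2 values was not tested. Nos1, the neuronal isoform, had counts of 14, 11, 7 and 6 and fell under the detection minimum.

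Edn1, which encodes the endothelin-1 precursor, had normalised counts of 579, 672, 660 and 455. Library 4 was the lowest, at 0.714 of the mean of the others. The mean was 591.5 ± 99.9 (n = 4), or 277 ± 46.7 per kb, close to the middle of detected genes at percentile 61.8. Edn1 (ENSMUSG00000021367) lies on the plus strand of chr13:42301476-42307990, and 1.64% of its exonic bases overlap Gm47118 on the opposite strand. Edn3, another endothelin, stood at 11, 0, 19 and 0 and fell under the minimum.

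Ece1, the protease that converts big endothelin to its active form, was the most even of the 10 genes. Its normalised counts were 7517, 7566, 7563 and 7559, a mean of 7551 ± 23.0 (n = 4). The level of 1568 ± 4.78 per kb exceeded that of Edn1 by 2.52 ± 0.26 on the log2 scale (5.73-fold, higher in 4 of 4 libraries). The highest library of Ece1 was under 1.1 times its lowest, as in 93.3% of detected genes above the 99th percentile per kb. The scaling of the counts is unknown, so the small spread was not set against that expected from read counting. Ece1 (ENSMUSG00000057530) lies on the plus strand of chr4:137862237-137965229. Ece2, its closest relative, was listed at 0 in all 4 libraries, so no fold is given.

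The endothelin receptors differed from each other in level and in evenness. Ednrb, the ETB receptor, had normalised counts of 524, 661, 861 and 514. Ednra, the ETA receptor, had counts of 177, 19, 215 and 274. Library 2 was thus 0.0856 of the mean of the other libraries for Ednra but 1.04 of it for Ednrb, and library 4 was the highest for Ednra and the lowest for Ednrb.

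Per kb, Ednrb averaged 150 ± 37.9 and Ednra 47.2 ± 30.1 (n = 4), and every Ednrb value lay above every Ednra value. The difference was 2.14 ± 1.84 on the log2 scale (4.42-fold), with an exact permutation p of 0.0286 and an adjusted p of 0.0286 over the 10 pairs. Without library 2 the difference was 1.25 on the log2 scale. Ednra is known in vessels mainly from mural cells, and in bulk RNA fewer cells of a type and less RNA per cell cannot be told apart. The value of 19 was over-represented in library 2, with 181 genes at 19 against 101 at 18 and 97 at 20, so it may stand for only a few reads. Ednrb (ENSMUSG00000022122) lies on the minus strand of chr14:103814625-103844402 and Ednra (ENSMUSG00000031616) on the minus strand of chr8:77663031-77724464.

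Ace, the endothelial ectoenzyme that forms angiotensin II and degrades bradykinin, had normalised counts of 456, 510, 533 and 491. These values lay within 1.17-fold of each other. The mean was 497.5 ± 32.6 (n = 4), or 97.5 ± 6.38 per kb, at percentile 41.0 of detected genes. Ace (ENSMUSG00000020681) lies on the plus strand of chr11:105967945-105989964, and 5.23% of its exonic bases overlap Gm11651 on the opposite strand.

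Adm, which encodes the adrenomedullin precursor, had normalised counts of 1447, 1188, 1511 and 1150. Libraries 1 and 3 were high and libraries 2 and 4 low. The mean was 1324 ± 182 (n = 4), or 953 ± 131 per kb, above 92.2% of detected genes. Adm (ENSMUSG00000030790) lies on the plus strand of chr7:110627661-110629820. Of the related peptides, those examined stood at 0 in all 4 libraries, namely Adm2 (intermedin) and the calcitonin gene-related peptide genes Calca and Calcb.

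Calcrl, the receptor for adrenomedullin, had normalised counts of 3674, 3482, 3560 and 2700. Libraries 1 to 3 lay close together and library 4 stood at 0.756 of their mean. The mean was 3354 ± 443 over 4 libraries, or 687 ± 90.8 per kb, above 85.0% of detected genes. Calcrl (ENSMUSG00000059588) lies on the minus strand of chr2:84330626-84425411. Calcr, the calcitonin receptor, was listed at 0 in all 4 libraries.

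The accessory proteins stood at opposite ends of the order. Ramp2 had normalised counts of 2511, 2406, 2429 and 2313. Ramp3 had counts of 36, 76, 52 and 67, and Ramp1, which turns CALCRL into the receptor for calcitonin gene-related peptide, had 4, 0, 0 and 1. Ramp1 thus fell under the minimum.

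Per kb, Ramp2 averaged 1858 ± 62.6 and Ramp3 46.8 ± 14.2 (n = 4), a difference of 5.34 ± 0.51 on the log2 scale (40.5-fold, higher in 4 of 4 libraries). The exact permutation test gave p = 0.0286 and an adjusted p of 0.0286 over the 10 pairs. Ramp2 also exceeded its partner Calcrl by 1.44 ± 0.16 on the log2 scale per kb (2.72-fold), and Adm exceeded Calcrl by 0.47 ± 0.15 (1.39-fold), each in 4 of 4 libraries. As counts without division by length both orders turned, with Calcrl higher than either. Ramp2 (ENSMUSG00000001240) lies on the plus strand of chr11:101246028-101259546 and Ramp3 (ENSMUSG00000041046) on the plus strand of chr11:6658521-6677475, where 7.62% of the exonic bases of Ramp3 overlap Gm11978 on the opposite strand. The detected genes whose levels per kb were most like those of Ramp2 over the 4 libraries were Kctd17 and Col4a1, with root mean square differences of 0.03 and 0.03 on the log2 scale.

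Of the 45 pairs that the 10 genes form, 43 had values per kb that did not overlap, each with an exact permutation p of 0.0286 and an adjusted p of 0.0299 over the 45 pairs. Among all pairs of detected genes 89.0% did not overlap, so this count is close to that of any genes of unequal level. The exceptions were neighbours in the order. Nos3 and Adm differed by 0.09 ± 0.20 on the log2 scale, with Nos3 higher in 2 of 4 libraries (exact permutation p = 0.429, adjusted p = 0.438). Ednra and Ramp3 differed by -0.46 ± 2.03, with Ednra higher in 3 of 4 libraries (exact permutation p = 0.886, adjusted p = 0.886), and by 0.55 without library 2.

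The other neighbours did not overlap. Ramp2 lay above Ece1 by 0.24 ± 0.05 on the log2 scale per kb, Ece1 above Nos3 by 0.64 ± 0.03, and Calcrl above Edn1 by 1.32 ± 0.13. Edn1 lay above Ednrb by 0.90 ± 0.23, Ednrb above Ace by 0.59 ± 0.27, and Ace above Ednra by 1.55 ± 1.77, or 0.68 without library 2. Without division by length Edn1 minus Ednrb turned to -0.10 and Ednrb minus Ace fell to 0.33, both with overlap. The step from Ramp2 to Ece1 depended on the length taken for Ramp2, since with the longest annotated transcript it was 0.06 and the values overlapped.

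Of 11 pairs of related genes, 10 could be compared because Edn2 was not among the rows used, and in all 10 the values did not overlap. With 89.0% of pairs of detected genes not overlapping, that count is close to what unrelated genes give, and most of these pairs set a high gene against one near 0. Only 3 of these had both genes detected, namely those of Nos3 with Nos2, Ednrb with Ednra, and Ramp2 with Ramp3. In the others 1 gene fell under the minimum, so their values are listed without a fold. The plot of related genes shows Edn1, Ece1, Adm, Calcrl and Ramp2 far above relatives that lay at or near 0.

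**Figure D3:**
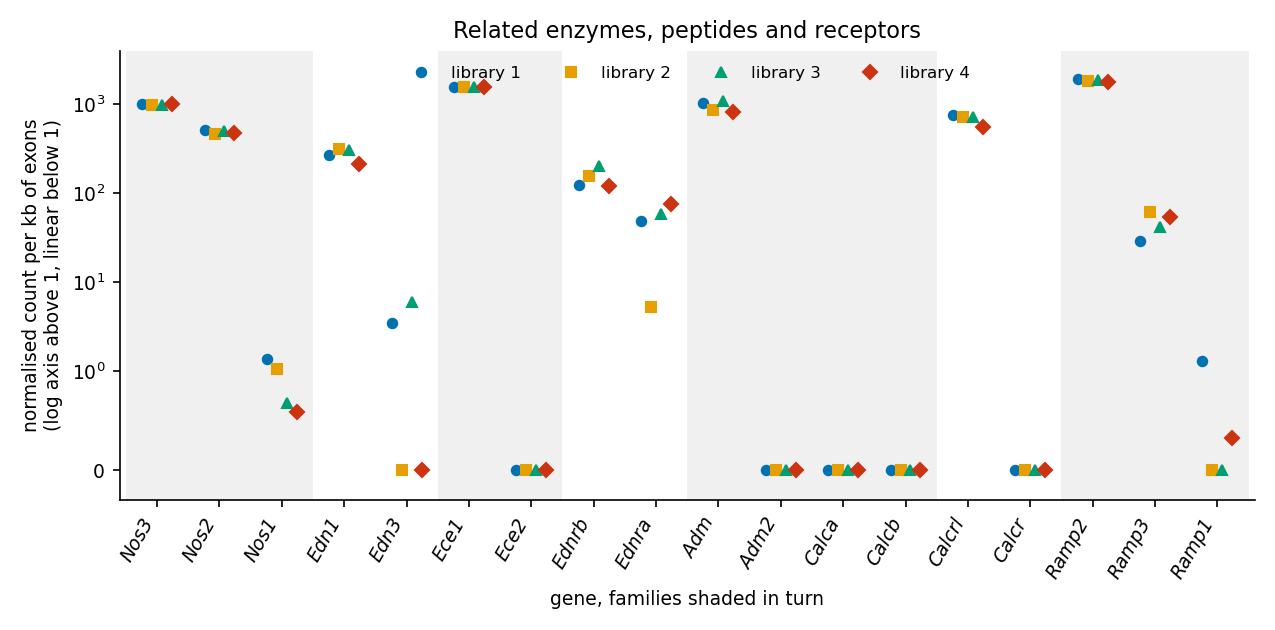
Normalised count per kb of exons of the 10 genes apart from Ace, and of their relatives, in each of the 4 libraries, with families shaded in turn (log axis above 1, linear below 1). Ece2, Adm2, Calca, Calcb and Calcr lie at 0 in all 4 libraries, whereas Nos3 lies 2.05-fold above Nos2 on average.

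With 1 group, the difference left to describe is that between libraries. The SD of each gene's log2(count + 1) values was set against the trend of SD on level over all detected genes, and a gene was called varying at a robust z above 3. By this call 4.01% of the 15012 detected genes varied, as did 2 of the 10, Ednra with an SD of 6.05 times the trend (z = 8.69) and Calcrl with 3.27 times (z = 3.95). Each call rested on 1 library. Without library 2 the ratio of Ednra was 1.46, at counts of 222 ± 48.9 (n = 3), and without library 4 that of Calcrl was 0.948, at counts of 3572 ± 96.6 (n = 3). Ednrb, at 2.66 times the trend (z = 2.92), was not called with all libraries but was called without library 2 (3.17 times) or library 4 (3.52 times). Edn1 and Adm lay at 1.91 and 2.01 times the trend and Ramp3 at 1.15 times, none of them called.

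Ramp2, Nos3, Ace and Ece1 lay under the trend, at 0.66, 0.418, 0.642 and 0.113 times. In 3 of the 10, Ramp2, Nos3 and Ece1, the highest library was under 1.1 times the lowest, as in 19.3% of detected genes. Such evenness went with a high level per kb: 75.7% of the 1500 detected genes above the 90th percentile met it, as did 93.3% of those above the 99th, whose median ratio to the trend was 0.418.

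**Figure D4:**
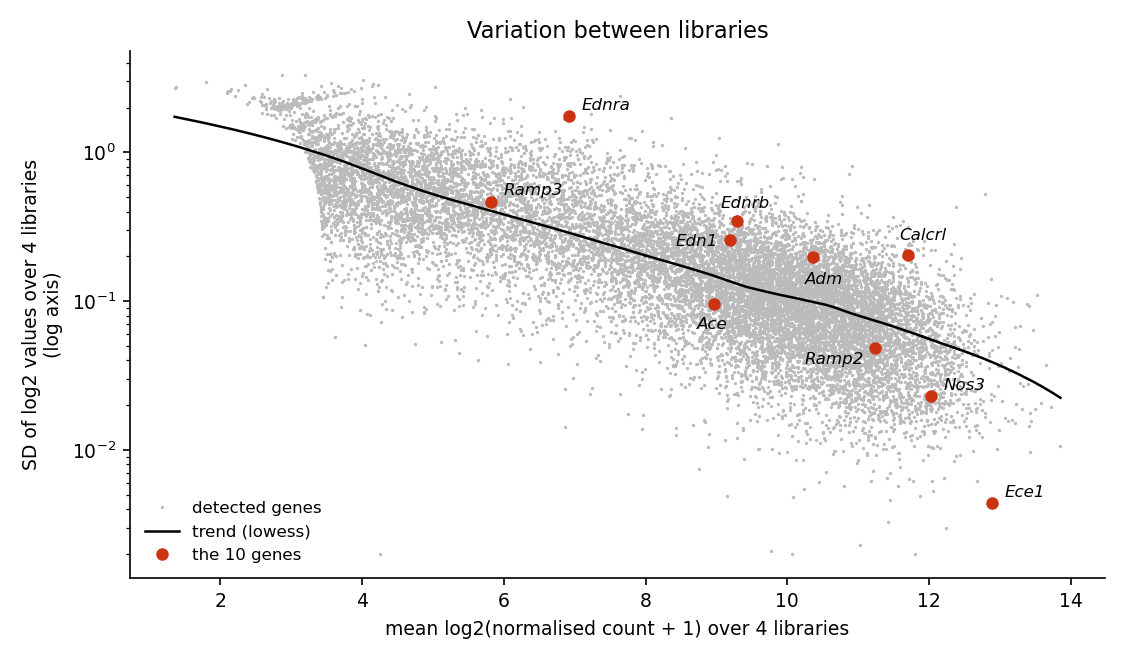
SD of the log2 values over the 4 libraries (log axis) against the mean log2(normalised count + 1) for all detected genes (grey), with the lowess trend (line) and the 10 genes (red). Ednra and Calcrl lie above the trend by 6.05 and 3.27 times, and Ece1 lies far below it at 0.113 times.

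Library 4 was the lowest library for 5 of the 10 genes, Edn1, Ednrb, Adm, Calcrl and Ramp2, against 33.0% of detected genes, and the highest for 1, Ednra, against 30.6%. Library 2 was the lowest for 1, Ednra, against 21.4%. In 1 of the 10, again Ednra, the highest library was at least 3 times the lowest, as in 12.4% of detected genes. Over the mean of libraries 1 to 3, the library 4 values were 0.754 for Ednrb, 0.832 for Adm and 2.00 for Ednra. Library 2 was under 0.2 times the mean of the others for Ednra, as for 1.34% of detected genes.

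Marker lists of cell types moved between the same libraries. The summed counts of 12 pericyte and smooth muscle markers were 2208, 602, 2420 and 4183 in libraries 1 to 4, all 12 markers were detected, and 10 were highest in library 4 while 8 were lowest in library 2. Rgs5, a defining pericyte marker, stood at 1222, 298, 1103 and 1879. Libraries 2 and 4 were therefore the lowest and the highest for both this list and Ednra, and the part of mural cell RNA in the Ednra values was not tested. Within the list, Acta2, Des and Myh11 were lowest in library 1 and Tagln in library 3. Low library 2 sums were not particular to this list. Over the mean of the others, library 2 stood at 0.205 for it, 0.115 for astrocytes, 0.350 for leukocytes and 0.445 for erythroid cells. Ganglion cells stood at 0.638, bipolar cells at 0.658, photoreceptors at 0.747, progenitors and Müller glia at 0.833 and pigment cells at 0.926. The endothelial and amacrine lists stood at 1.01 and 1.01. The astrocyte list summed to 1171, 103, 832 and 687, with 3 of 6 markers detected and Aqp4 at 0 in all libraries.

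The photoreceptor list summed to 5392, 6194, 4909 and 14590, with all 11 markers highest in library 4. The 15 endothelial markers were all detected and summed to 88065, 86769, 85906 and 84004, with 10 of 15 lowest in library 4. The part of other retinal cells in the lower library 4 values of Edn1, Ednrb, Adm and Calcrl was not tested. Of the 7 other lists, that of progenitors and Müller glia had the highest sums, at 6498, 5335, 4987 and 7740. In that list 7 of 9 markers were highest in library 4. The Pearson correlation of log2 values over detected genes ran from 0.970 to 0.974 among libraries 1 to 3 and from 0.960 to 0.965 with library 4, a description across genes, which are not independent replicates.

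**Figure D5:**
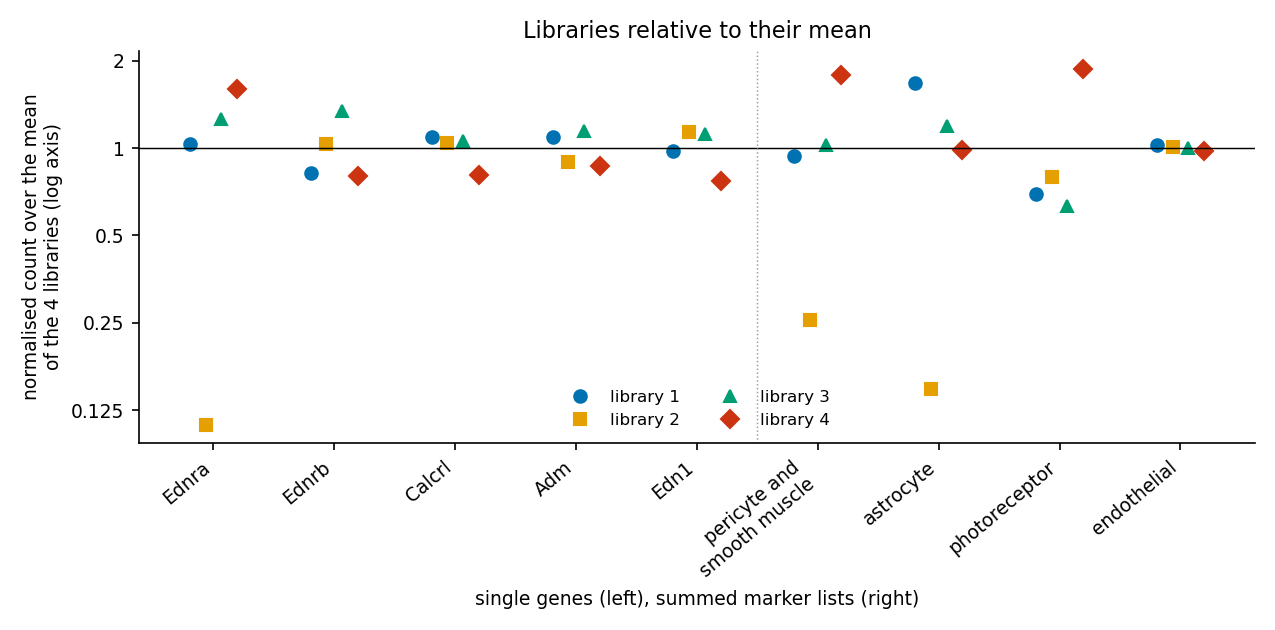
Normalised count in each library over the mean of the 4 libraries (log axis) for 5 genes (left) and for the summed counts of 4 marker lists (right). Library 2 is lowest for Ednra and for the pericyte and astrocyte lists, library 4 is highest for Ednra and for the pericyte and photoreceptor lists, and the endothelial sum stays near 1.

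The genes around these systems were counted from 5 lists holding 72 genes, of which 65 were among the rows used. Of these, 50 (76.9%) were detected, against 56.0% of all 26822 genes. Genes of nitric oxide synthesis and its control were detected in 20 of 23 cases. Their median was 703 per kb over the 23 and 955 per kb over the 20 detected, against 161 per kb over all detected genes. Their highest levels were those of Hsp90ab1, a chaperone that binds NOS3 (1788 ± 20.4 per kb), the kinase gene Akt1, whose product phosphorylates NOS3 (1647 ± 12.2 per kb), and the calmodulin gene Calm2 (1404 ± 16.6 per kb). Arg1 and Arg2, the arginases that use the same substrate as NOS3, fell under the minimum with Nos1.

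Genes of the response to nitric oxide were lower. In this list 7 of 8 were detected. The median was 21.2 per kb over the 8 and 36.2 per kb over the 7 detected, against the same 161 per kb. Its highest members were the soluble guanylyl cyclase subunits Gucy1b1 (53.1 ± 6.43 per kb) and Gucy1a1 (49.8 ± 25.7 per kb) and the cGMP phosphodiesterase Pde5a (46.9 ± 10.7 per kb). Gucy1a1 had counts of 252, 116, 187 and 407 and was called varying (z = 4.27). Like Ednra and the sum of the pericyte list, Gucy1a1 was lowest in library 2 and highest in library 4. Of the 7 detected genes of this list, 5 were highest in library 4, against 30.6% of all detected genes. Library 2 was the lowest for 2 of them, against 21.4%. Gucy1b1, with counts of 186, 144, 167 and 189, had the same lowest and highest libraries but was not called varying (z = -0.352). In contrast, Prkg1 and Pde5a were highest in library 2, Prkg1 with counts of 206, 295, 281 and 293. Pde5a, with counts of 440, 447, 354 and 265, was the 1 gene lowest in library 4, against 33.0%. The part of mural cell RNA in these values was not tested. Prkg2 fell under the minimum.

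Among the other genes of endothelin processing and signalling 7 of 10 were detected, with Plcb3 (895 ± 82.5 per kb) and Gna11 (743 ± 41.5 per kb), which act behind Gq-coupled receptors, and the proprotein convertase Furin (569 ± 54.4 per kb) the highest. Edn3, Ece2 and Plcb2 fell under the minimum. Among the other adrenomedullin and calcitonin gene-related peptide genes 9 of 14 were detected, led by the adenylyl cyclase Adcy4 (1070 ± 46.4 per kb), Crcp (635 ± 47.1 per kb), a component of the receptor complex, and Pam, which amidates the peptide (213 ± 26.6 per kb). The 5 under the minimum were Adm2, Calca, Calcb, Calcr and Ramp1.

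Of the angiotensin and kinin genes 7 of 10 were detected. The highest were the prorenin receptor Atp6ap2 (823 ± 54.7 per kb), the bradykinin B2 receptor Bdkrb2 (244 ± 41.9 per kb) and the angiotensin receptor-associated protein Agtrap (157 ± 18.9 per kb). Agtr1a, Mas1 and Bdkrb1, which encode receptors for angiotensin II, angiotensin-(1-7) and des-Arg kinins, fell under the minimum. In the whole of the 5 lists, 2 genes were called varying, Gucy1a1 and the calmodulin gene Calm3, which is named here after its values were seen (counts of 2920, 2898, 2930 and 2002, z = 4.94). These are 4.00% of the 50 detected, near the 4.01% of all detected genes.

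For 8 of the 10 genes, 12 promoter windows of 250 bases upstream of an annotated start were found in the RefSeq sequences of GRCm38.p6, and for Nos3 and Ramp2 none was used. The windows were searched on both strands for GGAATG, the core bound by the TEAD factors that the study concerns, for ACGTG, the core of the hypoxia response element, and for GATAAG, the GATA motif. These letters occur in 12.6%, 16.6% and 6.55% of all 32851 RefSeq mouse windows of that length. The TEAD core was found only for Edn1 and Ramp3, and the sequences of these windows are shown for that reason, 5′ to 3′, with the match, read on the opposite strand as CATTCC, in capitals.
Edn1, chr13:42301226-42301475, plus strand: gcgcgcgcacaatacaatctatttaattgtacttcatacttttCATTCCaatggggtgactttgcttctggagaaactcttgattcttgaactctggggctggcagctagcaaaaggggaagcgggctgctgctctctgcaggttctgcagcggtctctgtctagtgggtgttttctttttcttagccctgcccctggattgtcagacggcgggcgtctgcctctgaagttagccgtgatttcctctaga
Ramp3, chr11:6658283-6658532, plus strand: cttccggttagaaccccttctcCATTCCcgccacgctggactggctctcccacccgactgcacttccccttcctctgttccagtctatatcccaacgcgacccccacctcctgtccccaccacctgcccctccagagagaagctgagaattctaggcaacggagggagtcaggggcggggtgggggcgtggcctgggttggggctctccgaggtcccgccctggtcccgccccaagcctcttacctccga
The match begins 207 bases before the start in Edn1 and 228 bases before it in Ramp3. ACGTG was found in 1 of the 4 windows of Ece1, on both strands at overlapping positions, and GATAAG in no window. The match is a description of letters, and no binding was measured in these samples.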

How the data were processed

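RNA-seq was performed on 4 libraries of sorted retinal ECs at P6. The authors deposited 1 table of read counts per Ensembl gene that had been normalised between libraries and rounded, which is analysed as a score, since the scaling is unknown. The submitters' notes name FastQC. The normalisation, aligner, annotation and counting strand for the mouse libraries are not given in the sources used here. Gene positions matched GRCm38 for 26553 of 26778 identifiers (99.2%) in GENCODE M21, which gave the exon lengths.

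Library totals were 14844071 to 15017432. No gap was seen among the values 1 to 20 of any library, which left the size of 1 read undefined. The depth of single values is therefore unknown and counting intervals were not computed. Between 5 and 20, the most over-represented value was 9 in library 1, 19 in library 2 and 6 in libraries 3 and 4. In library 1, 560 genes stood at 9, against 308 just below and 212 just above. At 6 stood 751 genes in library 3, against 477 and 284, and 741 in library 4, against 409 and 326. Low values may thus stand for only a few reads.

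The table had 26834 rows. For 11 repeated symbols only the highest row was used, which gave 26822 genes, and 15012 of them reached a mean of 10. Values were analysed as log2(count + 1), a scale that understates differences of low genes, with Python 3.11.15, numpy 2.4.6, pandas 2.3.3, scipy 1.17.1, statsmodels 0.14.6 and matplotlib 3.10.9. Pairs were compared by the exact two-sided permutation test with Benjamini-Hochberg adjustment (threshold 0.05). The variation trend was a lowess fit (fraction 0.2, 3 iterations). Tested on simulated data, that call marked 89 of 15012 unchanged genes and 147, 159 and 188 of 200 genes raised 2-fold, 4-fold and 8-fold in 1 library. Every simulated gene was given the SD of the trend, unlike the real genes, of which 602 were called. The simulated share is therefore not an error rate for the real calls.

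The genes and lists were chosen with earlier results of these data known. Named beside the 10 genes were their relatives, the 3 highest members per kb and the undetected members of each pathway list, leading markers, overlapping genes and the 2 genes nearest Ramp2. Of the pairs and pathway lists, 1 gene is not reported here. Alternatives covered left-out libraries, rescaling, pseudocounts, exon lengths, detection minimums, the trend and a sign-flip test within libraries.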

Additional observations from a re-analysis of the deposited data

Results flagged for a closer look

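Among 59 values examined in the group of 4 libraries (the 10 genes, and named genes and lists beside them), 5 had 1 library whose gap to the nearest other exceeded the critical value for 4 samples. For independent and normally distributed values, chance alone would mark about 1 in 20, or 2.95 of 59. The values are not independent, since the photoreceptor sum includes Sag.

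Ece1 was the only member among them. Library 1 stood at 7517 against 7559 to 7566 in the others, a gap that was wide only against the very small spread of this gene. Hsp90ab1 stood at 4582 in library 1, against 4474 to 4489. P2ry12, a microglial receptor gene, stood at 39 in library 1, against 1 to 6. The photoreceptor arrestin gene Sag stood at 1907 in library 4, against 953 to 1036, and the summed count of the photoreceptor list at 14590 in library 4, against 4909 to 6194.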

How the results depend on the processing

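Of 384 alternative values for 43 results under 17 settings, 366 were classed as kept. Differences had to keep their direction and their overlap call, and SD ratios their call. Levels had to stay within the SD of the reported level. Counts had only to stay near the reported count, so 43 or 60 detected list genes against 50 were classed as kept. Without division by length, 5 differences on the log2 scale turned: Ramp2 minus Ece1 was -1.65, Adm minus Calcrl -1.34, Edn1 minus Ednrb -0.10, Ednra minus Ramp3 1.09 and Ramp2 minus Calcrl -0.46. Nos3 minus Adm grew to 1.66 with no overlap, and Ednrb minus Ace fell to 0.33 with overlap. With a library left out, Ednra minus Ramp3 ran from -0.86 (without library 1) to 0.55 (without library 2), with overlap throughout. The count of member pairs without overlap was 43 with any library left out, 42 with the longest transcript as length and 41 with no division by length. Leaving a library out cannot create overlap, so the count could not fall there. Among all pairs of detected genes the share without overlap then ran from 90.3% to 92.4%. Rescaling multiplies a whole library, so differences between genes of that library were nearly fixed in advance. Such values are among the 366 classed as kept. With a library left out the smallest p is 0.10, so only overlap was counted there. Detected members numbered 9 at a minimum mean of 100, where Ramp3 was lost, and detected list genes ran from 43 at that minimum to 60 at a minimum of 1. Of the lists, those of nitric oxide response and of angiotensin and kinins fell to 4 and 4 detected genes at a minimum of 100. The number of members called varying was 2 in every setting, but the genes changed when library 2 or 4 was left out. The level of Ramp2 was 1634 per kb with the longest transcript. With the library as replicate block, the exact sign-flip test of differences within libraries, added after seeing the data, called 0 of 45 member pairs and 0 of 10 related pairs, since its smallest p is 0.125. In 43 and 10 of these pairs the direction was nonetheless the same in all 4 libraries. Unknown depth limits what low values can show, such as those of Ramp1, those of Ramp3 and that of Ednra in library 2.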
